A study of Mus musculus with 30 samples.

Results

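The comparison described here sets 2 mouse embryonic stem cell lines against each other, one that loses PDS5A, PDS5B and NIPBL on treatment and one that loses WAPL and NIPBL. It asks, gene by gene, whether treatment changed expression by a different amount in the first line than in the second, so the quantity is a difference of 2 log2 fold changes. It rests on 12 of the 30 RNA-seq libraries of the series, which are all 3 libraries of each of 4 groups and carry library numbers from 25 to 40. The cells are E14 embryonic stem cells of XY karyotype and 129P2/Ola background, grown in serum with leukemia inhibitory factor (LIF), the MEK inhibitor PD0325901 and the GSK3 inhibitor CHIR-99021. The PDS5AB-NIPBL line carries PDS5A-AID and PDS5B-AID, and the WAPL-NIPBL line carries WAPL-AID. Both also carry NIPBL-FKBP, a RAD21-Halo fusion and Tir1. AID is an auxin-inducible degron, through which the plant protein Tir1 has the tagged protein destroyed once auxin is added. FKBP is the degron that the small molecule dTAG-13 acts on. Treated cells of both lines received 500 µM auxin and 500 nM dTAG-13 for 24 h, and untreated cells received neither. All 4 groups therefore share the HaloTag on RAD21, the degron on NIPBL and Tir1, and the labels name 1 cell line for each genotype. A property of a line cannot be told apart from the identity of the cofactor it loses. No group received dTAG-13 without the NIPBL degron, so an effect of the compound itself cannot be told apart from loss of NIPBL.

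Cohesin is a ring-shaped complex that holds chromatin and extrudes it into loops, and RAD21 is one of its core subunits. NIPBL stimulates loop extrusion, WAPL releases cohesin from chromatin, and PDS5A and PDS5B bind the ring, where they take part both in release by WAPL and in halting the complex at sites bound by CTCF. These cofactors take part in setting how far loops extend and which distant chromatin sites meet.

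Treatment changed 72 of the 19868 genes tested by a different amount in the 2 lines (0.362% of genes, quasi-likelihood test of edgeR, Benjamini-Hochberg adjusted p under 0.05, termed called below). The difference was positive for 53 genes (0.267% of genes), meaning that the fold change was higher in the PDS5AB-NIPBL line, and negative for 19 (0.0956%). It was at least 2-fold for 25 of the 72. Where the mean over the 12 libraries was 50 counts or more, the largest differences were in Kctd12, an auxiliary subunit of GABA-B receptors, with a log2 difference of 2.09, and in the adhesion gene Ceacam1, with -1.94. Among 30 lists of genes, chosen with earlier results of these data known, the p53 targets held the most called members. Of these targets Mdm2, Btg2 and Plk2 had called positive differences, and none had a called negative one. The lists differ in size, so this ranking only sets the order of description. Same-numbered treated and untreated libraries of a line deviated together from their group means, as did same-numbered libraries of the 2 lines. A paired fit was therefore also made. With this replicate block within each line the count was 807 (4.06% of genes), 532 positive (2.68%) and 275 negative (1.38%), and all 72 were among them. Without the block, leaving out 1 library gave 28 to 56 called genes, the lowest without PDS5AB-NIPBL untreated replicate 3. Counts without the block are given first below.

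Before the results, the libraries were checked. The 12 libraries held 19632704 to 33807322 counted fragments, and their log expression correlated at 0.987 to 0.992 within groups over the genes tested. The stem cell genes Pou5f1, Sox2, Nanog and Zfp42 stood at 295 to 1106 CPM (counts scaled to library size, in this and the next 2 sentences without TMM factors) in every library. Of the trophoblast markers, Tpbpa had no count and Elf5 at most 3 counts per library, while Cdx2 stood at 4.59 to 12.4 CPM. Of the fibroblast markers, Dcn had at most 1 count and Lum at most 2, while Col1a1 stood at 2.48 to 6.96 CPM, Col1a2 at 0.102 to 0.681 CPM and Thy1 at 1.45 to 6.10 CPM. The summed level of the 12 of 15 trophoblast genes that passed the count filter ran from 146 to 169 CPM in untreated and from 125 to 142 CPM in treated PDS5AB-NIPBL libraries, and from 143 to 163 and from 109 to 129 CPM in the WAPL-NIPBL libraries. For 14 neural progenitor genes the sums were 179 to 205.5 and 236 to 272 CPM in the PDS5AB-NIPBL line. In the WAPL-NIPBL line they were 188 to 218 and 191 to 216 CPM. For 17 endoderm genes they were 624 to 678 and 760.5 to 794 CPM in the former line. In the latter they were 680 to 727 and 794 to 840 CPM. None of the tagged genes was called in the difference. The log2 difference was -0.12 for Pds5a, 0.04 for Pds5b, 0.05 for Wapl, 0.10 for Nipbl and -0.01 for Rad21, with edgeR adjusted p from 0.948 to 0.998, and none was called with the replicate block. Degrons act on the protein, so these transcript values are no measure of depletion. The lines started from different levels of 2 of the degron genes: Pds5a was lower in untreated PDS5AB-NIPBL than in untreated WAPL-NIPBL cells (log2 -1.43, edgeR adjusted p = 4.9e-12), and Nipbl was higher (log2 0.79, edgeR adjusted p = 9.26e-07). Pds5a overlaps 3 annotated genes on the other strand, and fragments were counted without regard to strand, so reads of overlapping genes on opposite strands cannot be told apart. The libraries are from bulk cells, in which fewer cells of a type and less RNA per cell cannot be told apart. The labels do not say that the 3 libraries of a group came from separate cultures, so p-values measure the spread between these libraries, which may be technical.

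The p53 targets are described first because they were the list with the most called members. That list was chosen with earlier results of these data known. The protein p53 is a transcription factor that is held down by the ubiquitin ligase MDM2, accumulates under stress and switches on genes for growth arrest, repair and cell death. It binds a 20-base site made of 2 half-sites of 10 bases, each with an invariant C and G at its core. RefSeq promoter windows (GRCm38.p6), of which the 250 bases before each start were searched, were found for 15 of the 20 p53 targets tested. The site was searched as its consensus with no spacer, with the core C and G of both half-sites intact and at most 3 mismatches (the consensus reads the same on both strands). It was found in 5 of the 15 genes, against 1.62% of the 12729 tested genes with a window. The stretches below are shown because they carry those matches. The site is in capitals and 25 bases stand on either side of it, except for Aen, where only the site is shown because the longer stretch touches an annotated exon.
Cdkn1a (chr17:29090903-29090972, plus strand): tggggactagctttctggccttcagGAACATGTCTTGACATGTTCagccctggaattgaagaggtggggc
Ccng1 (chr11:40755437-40755506, minus strand): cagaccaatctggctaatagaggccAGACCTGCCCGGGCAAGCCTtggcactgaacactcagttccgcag
Bbc3 (chr7:16309461-16309530, plus strand): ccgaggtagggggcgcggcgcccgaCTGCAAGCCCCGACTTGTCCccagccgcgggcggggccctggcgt
Aen (chr7:78895937-78895956, plus strand): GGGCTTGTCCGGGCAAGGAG
Sesn1 (chr10:41887241-41887310, plus strand): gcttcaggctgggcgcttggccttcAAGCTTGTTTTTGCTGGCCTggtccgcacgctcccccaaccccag
The sites of Cdkn1a and Ccng1 have 1 mismatch each, and those of Bbc3, Aen and Sesn1 have 3. A site with at most 1 mismatch was found in 0.0707% of tested genes with a window. The windows of Mdm2, Btg2 and Plk2 held none, which says only that these letters are absent from those 250 bases.

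Of the 20 p53 targets tested, 3 were called with a positive difference (0.267% of all genes) and 0 with a negative one. With the replicate block 14 were positive (2.68% of all genes) and 0 negative. The median log2 difference over the list was 0.36, against -0.0037 over all genes. A positive difference was found in 19 of the 20 genes, against 9786 of all 19868 genes tested. In the PDS5AB-NIPBL line 17 of the 20 rose and 0 fell (11.4% and 8.06% of all genes), and in the WAPL-NIPBL line 3 rose and 0 fell (5.11% and 3.45%). With the block 18 rose in the PDS5AB-NIPBL line (16.8% of all genes), while in the WAPL-NIPBL line 12 rose (10.8%) and 1 fell (10.1%). The summed level of the list went from 2408 to 2603 CPM in the untreated PDS5AB-NIPBL libraries to 3391 to 3702 CPM in the treated ones. In the WAPL-NIPBL line it went from 2504 to 2718 CPM to 2708 to 2988 CPM. The untreated ranges of the 2 lines overlap, and the treated ranges do not. Gene by gene, 5 of the 20 were called lower and 0 higher in untreated PDS5AB-NIPBL than in untreated WAPL-NIPBL cells (11.5% and 11.4% of all genes), with a median log2 of -0.08.

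Mdm2 (GRCm38 chromosome 10, 117688875 to 117710758), which encodes the ligase that turns p53 over and is itself a p53 target, had the lowest adjusted p of the list. Untreated PDS5AB-NIPBL libraries held 180, 180 and 183 CPM of Mdm2, and the treated ones held 306, 291 and 290 CPM. The WAPL-NIPBL libraries held 195, 182 and 186 CPM untreated and 218, 199 and 197 CPM treated. The treated PDS5AB-NIPBL libraries stand above all 9 others, which lie close together. Mdm2 rose by log2 0.71 in the PDS5AB-NIPBL line (SE 0.0592, edgeR adjusted p = 5.09e-10), and its change of 0.13 in the WAPL-NIPBL line was not called (edgeR adjusted p = 0.213). The difference of 0.58 (SE 0.0834, edgeR adjusted p = 0.000678) was called in all 12 fits that left out 1 library.

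Btg2 (GRCm38 chromosome 1, 134075170 to 134079120), an inhibitor of cell proliferation, and Plk2 (GRCm38 chromosome 13, 110395046 to 110400844), a stress-induced polo-like kinase, followed. Btg2 stood at 80.1, 73.1 and 79.3 CPM in untreated and at 136, 130 and 141 CPM in treated libraries of the PDS5AB-NIPBL line. The values for the WAPL-NIPBL line were 84.9, 77.1 and 83.3 CPM untreated and 106, 84.3 and 92.6 CPM treated. The treated PDS5AB-NIPBL libraries are again the highest, and treated WAPL-NIPBL replicate 1 is the next. The log2 difference of Btg2 was 0.60 (SE 0.131, edgeR adjusted p = 0.0331). The level of Plk2 before treatment was 64.4, 51.7 and 64.3 CPM in the PDS5AB-NIPBL libraries and 58.5, 54.3 and 53.6 CPM in the WAPL-NIPBL libraries. After treatment it was 135, 118 and 128 CPM in the former and 87.8, 69.9 and 79.7 CPM in the latter. The untreated lines overlap, treated libraries are higher in both, and those of the PDS5AB-NIPBL line are the highest. Plk2 rose in both lines, by log2 1.08 and 0.51 (edgeR adjusted p = 2.85e-10 and 0.000166), and the difference was 0.57 (SE 0.123, edgeR adjusted p = 0.0302). Both differences are firmer in the paired fit (edgeR adjusted p with the replicate block of 2.24e-05 for Btg2 and 2.11e-05 for Plk2). Without it, the call for Btg2 was lost in 10 of the 12 fits that left out 1 library, and kept only without WAPL-NIPBL treated replicate 1 or PDS5AB-NIPBL treated replicate 2. That for Plk2 was lost in 8 of them. The highest adjusted p was 0.115 for Btg2, without WAPL-NIPBL treated replicate 2, and 0.112 for Plk2, without PDS5AB-NIPBL untreated replicate 2.

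The other list members were called in the difference only with the replicate block, or not at all, and those named here were chosen after their values were seen. The cell cycle inhibitor Cdkn1a went from a mean of 148.08 to 186 CPM in the PDS5AB-NIPBL line, where it rose (log2 0.33, edgeR adjusted p = 0.00505), and stood at 221 and 216 CPM in the WAPL-NIPBL line. Its difference of 0.36 had edgeR adjusted p of 0.284 without and 0.00648 with the block. Trp53inp1, which promotes p53 activity, rose by 0.68 in the PDS5AB-NIPBL line and had 0.22, which was not called, in the WAPL-NIPBL line (difference 0.45, edgeR adjusted p = 0.111, 3.35e-05 with the block). The cell death gene Fas rose in both, by log2 1.41 and 1.24, with a difference of 0.17 that was not called in either fit. Sesn1, a stress-induced sestrin, was the 1 member with a negative difference (-0.19, edgeR adjusted p = 0.803). In the line that carries Tir1 and no degron, treated with auxin alone, 12 of the 20 rose and 0 fell (10.4% and 9.59% of all genes, 19.9% in all), with a median log2 of 0.32. The libraries of that line are numbered 5 to 21 untreated and 43 to 45 treated, so library set and auxin cannot be told apart there. Both co-depletion lines received the same auxin, and the part of auxin in the difference between them was not tested. In the PDS5AB and WAPL lines that keep NIPBL, the PDS5AB effect was higher than the WAPL effect for 7 of the 20 and lower for 0 (7.38% and 5.11% of all genes).

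**Figure D1:**
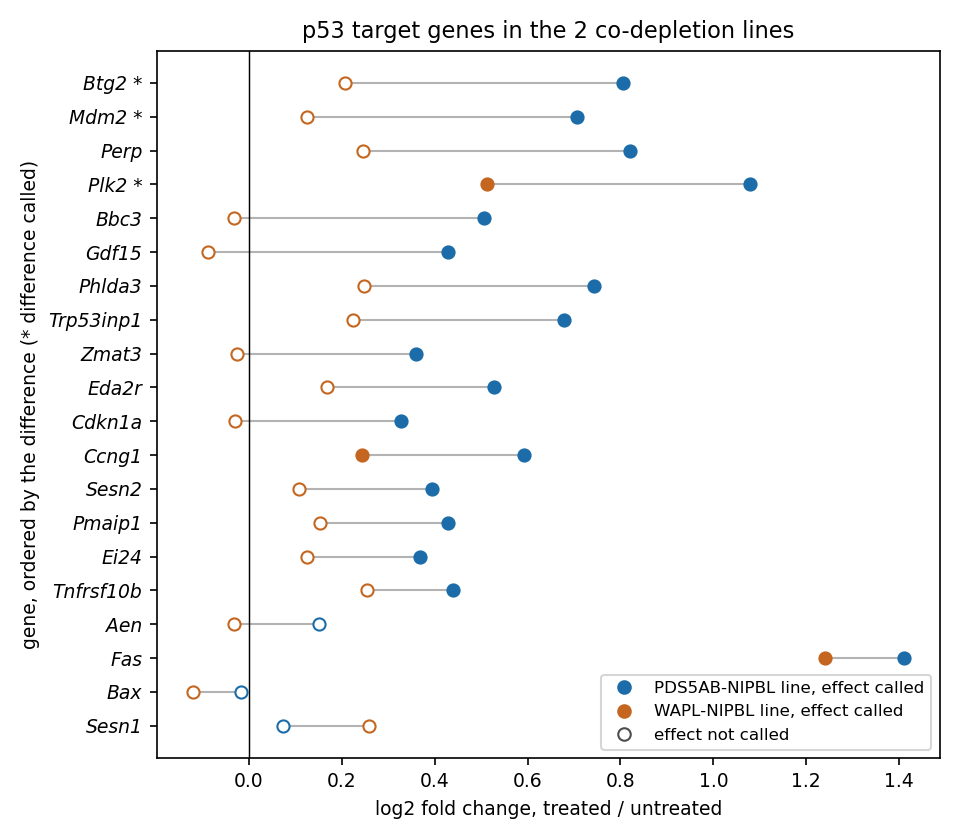
Log2 fold change on treatment of the 20 p53 targets tested (x axis) in the PDS5AB-NIPBL line (blue) and the WAPL-NIPBL line (orange), with genes ordered by the difference on the y axis. Filled points are effects that were called, open points are not, and an asterisk marks Btg2, Mdm2 and Plk2, whose difference was called. The blue point lies to the right of the orange one for 19 genes, and Sesn1 is the exception. Of all 19868 genes tested, 9786 had a positive difference.

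Among all 72 genes, the larger change was in the PDS5AB-NIPBL line for 64, against 59.83% of all genes tested. Of the 53 genes with a positive difference, 37 were called in the PDS5AB-NIPBL effect alone, 4 in the WAPL-NIPBL effect alone, 11 in both with the same direction and 1 in both with opposite directions. Their median log2 fold change was 0.80 in the PDS5AB-NIPBL line and 0.16 in the WAPL-NIPBL line. Of the 19 with a negative difference, 7 were called in the PDS5AB-NIPBL effect alone, 4 in the WAPL-NIPBL effect alone, 6 in both with the same direction and 2 in opposite directions, and the medians were -1.03 and -0.07. For comparison, 3874 genes were called in the PDS5AB-NIPBL effect (19.5%) and 1702 in the WAPL-NIPBL effect (8.57%). The 3 same-numbered log2 ratios of treated to untreated did not overlap between the lines for any of the 72 (22.5% of all genes). These counts, medians and ratios describe genes chosen on the same contrast and libraries, and nothing is read from them. The plot of the 2 effects shows these genes away from the line of equal effects, 53 above and 19 below it.

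**Figure D2:**
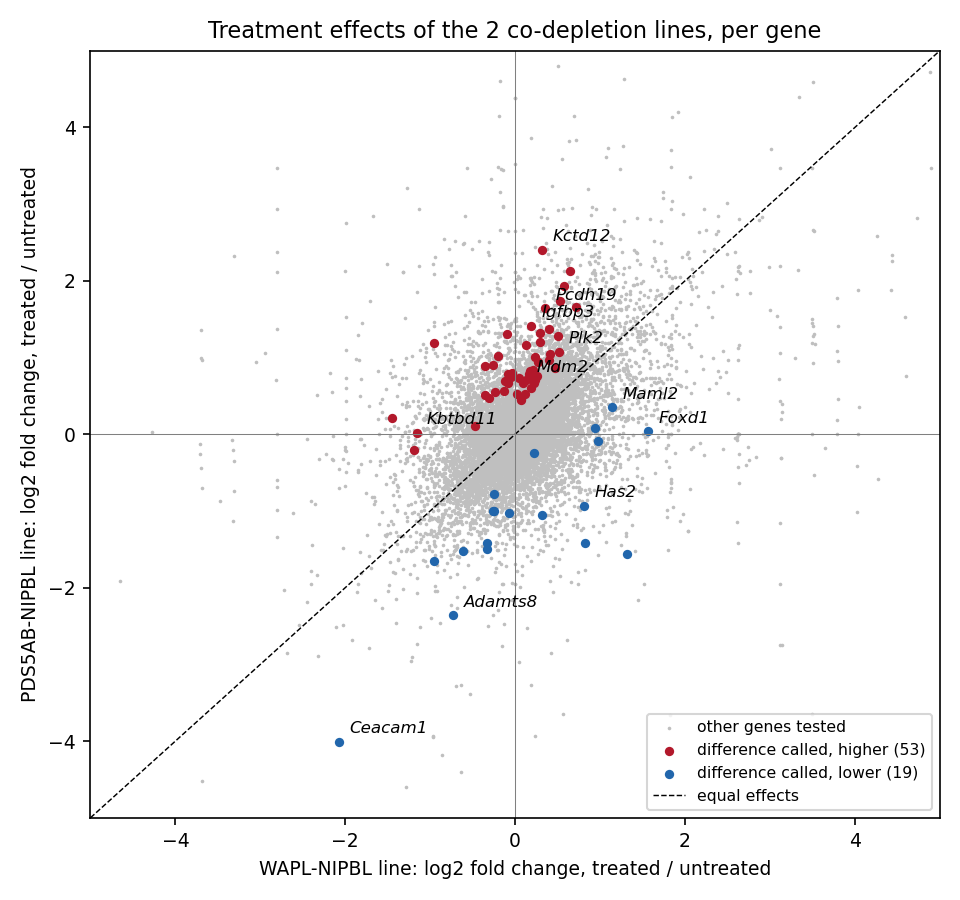
Log2 fold change on treatment in the PDS5AB-NIPBL line (y axis) against that in the WAPL-NIPBL line (x axis) for the 19868 genes tested, less 11 that lie outside the axes. Red points are the 53 genes and blue points the 19 genes whose difference was called, and the dashed line marks equal effects. Most red points lie near 0 on the x axis and above 0 on the y axis.

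Kctd12 (GRCm38 chromosome 14, 102976581 to 102982637) had the largest positive difference among well-counted genes. Levels of Kctd12 were 3.59, 3.79 and 4.36 CPM in the untreated and 20.1, 20.96 and 21.4 CPM in the treated PDS5AB-NIPBL libraries. Those of the WAPL-NIPBL line were 2.23, 2.96 and 2.62 CPM before and 2.51, 3.58 and 3.599 CPM after treatment. The treated PDS5AB-NIPBL libraries are all far above the other 9 and close to one another. Kctd12 rose by log2 2.41 in the PDS5AB-NIPBL line (SE 0.136, edgeR adjusted p = 1.77e-13), and its change of 0.32 in the WAPL-NIPBL line was not called (edgeR adjusted p = 0.247). The difference was 2.09 (SE 0.21, edgeR adjusted p = 1.12e-06) and was the 1 difference still called when a 2-fold minimum was built into the test. It was called in all 12 fits that left out 1 library.

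Pcdh19 (GRCm38 chromosome X, 133582860 to 133688987), a protocadherin of cell adhesion encoded on the X chromosome, showed the same shape. The 3 untreated PDS5AB-NIPBL libraries gave 5.09, 4.09 and 4.68 CPM for Pcdh19 and the 3 treated ones 13.3, 12.98 and 17.2 CPM. From the WAPL-NIPBL line, the untreated libraries gave 4.98, 4.19 and 4.99 CPM and the treated ones 5.49, 6.25 and 6.298 CPM. Both untreated groups and the treated WAPL-NIPBL group lie within a narrow range, and the 3 treated PDS5AB-NIPBL libraries are above it. The difference was 1.29 (SE 0.194, edgeR adjusted p = 0.000826). Igfbp3 (GRCm38 chromosome 11, 7206086 to 7213923), which encodes a secreted binding protein of insulin-like growth factors, started higher in the PDS5AB-NIPBL line and moved further from the other line. With treatment, Igfbp3 went from 8.07, 6.01 and 9.696 CPM to 21.1, 20.5 and 22.4 CPM over the PDS5AB-NIPBL libraries. Over the WAPL-NIPBL libraries it went from 4.26, 4.16 and 4.61 CPM to 4.89, 4.78 and 5.195 CPM. The lines do not overlap in either state, and the treated PDS5AB-NIPBL libraries are far above the rest. Its difference was 1.23 (SE 0.183, edgeR adjusted p = 0.000826), and like that of Pcdh19 it was called in all 12 fits that left out 1 library.

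Tbc1d4 (GRCm38 chromosome 14, 101442360 to 101609191), a regulator of the small GTPases that move glucose transporters to the cell surface, lies on chromosome 14 at a distance of 1367.4 kb from Kctd12, with 5 tested genes between them. Untreated PDS5AB-NIPBL libraries held 2.05, 2.13 and 2.46 CPM of Tbc1d4, and the treated ones held 4.19, 6.52 and 5.84 CPM. The WAPL-NIPBL libraries held 2.37, 2.36 and 2.76 CPM untreated and 1.82, 2.66 and 2.47 CPM treated. The treated PDS5AB-NIPBL group stands above the others, with replicate 1 the lowest of the 3. The difference was 1.41 (SE 0.287, edgeR adjusted p = 0.0197). Its call was lost in 6 of the 12 fits that left out 1 library, with the highest adjusted p, 0.0837, without WAPL-NIPBL untreated replicate 3. The predicted gene Gm17657, which overlaps Tmem217 on the same strand, had a difference of 1.36 (edgeR adjusted p = 0.0206) and lost its call in 6 of those fits (up to 0.0786, without PDS5AB-NIPBL untreated replicate 3). Gm17657 was lower in the PDS5AB-NIPBL line both untreated and treated (log2 -2.59 and -1.23, edgeR adjusted p = 9.33e-11 and 5.12e-06).

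Lacc1, B3gnt3, Nlrp9b, Spi1 and 9530053A07Rik are the others of the 12 most positive genes that rose in the PDS5AB-NIPBL line. Lacc1 (GRCm38 chromosome 14, 77024200 to 77036904), an enzyme best known from macrophages, rose in the PDS5AB-NIPBL line (log2 0.90, edgeR adjusted p = 1.84e-05) and had -0.26, which was not called, in the other. Lacc1 stood at 3.87, 5.27 and 3.93 CPM in untreated and at 7.88, 9.19 and 7.34 CPM in treated libraries of the PDS5AB-NIPBL line. The values for the WAPL-NIPBL line were 1.99, 1.94 and 2.17 CPM untreated and 1.77, 1.53 and 1.799 CPM treated. The 2 lines do not overlap even before treatment. Its difference of 1.16 (SE 0.222, edgeR adjusted p = 0.0111) was called in all 12 fits that left out 1 library, and Lacc1 overlaps Ccdc122 on the other strand. B3gnt3, a glycosyltransferase, differed by 1.22 (edgeR adjusted p = 0.0124), a call lost without PDS5AB-NIPBL untreated replicate 3 (0.0524). B3gnt3 started lower in untreated PDS5AB-NIPBL than in untreated WAPL-NIPBL cells (3.10 against 6.16 CPM, log2 -0.99, edgeR adjusted p = 4.93e-05). The treated lines, at 6.27 and 5.40 CPM, were not called apart (edgeR adjusted p = 0.345). Nlrp9b, of the NOD-like receptor family, differed by 1.24 (edgeR adjusted p = 0.0144), and the call was lost without PDS5AB-NIPBL untreated replicate 3 (0.0524), PDS5AB-NIPBL treated replicate 3 (0.0558) or WAPL-NIPBL untreated replicate 1 (0.0596). Spi1, which encodes the blood cell transcription factor PU.1, rose in the PDS5AB-NIPBL line (log2 1.74) and differed by 1.20 (edgeR adjusted p = 0.0352). That call was lost in 8 of the 12 fits, with the highest adjusted p, 0.171, without PDS5AB-NIPBL untreated replicate 3. Spi1 too started lower in the untreated PDS5AB-NIPBL line (1.07 against 2.19 CPM, log2 -1.04, edgeR adjusted p = 0.000237). The treated lines, at 3.55 and 3.17 CPM, were not called apart (edgeR adjusted p = 0.552). The predicted gene 9530053A07Rik differed by 1.04 (edgeR adjusted p = 0.0117), a call lost without PDS5AB-NIPBL untreated replicate 2 (0.0512) or WAPL-NIPBL untreated replicate 3 (0.0622).

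The 4 genes with a positive difference that were called in the WAPL-NIPBL effect alone all fell there, namely Kbtbd11, Gm6166, Fabp5 and Dapk1. Kbtbd11 (GRCm38 chromosome 8, 15011025 to 15033333), a protein of the BTB and Kelch family, is the clearest. The level of Kbtbd11 before treatment was 25.5, 25.2 and 30.9 CPM in the PDS5AB-NIPBL libraries and 34.2, 32.3 and 39 CPM in the WAPL-NIPBL libraries. After treatment it was 23.9, 28.4 and 30.6 CPM in the former and 13.5, 16.6 and 16.98 CPM in the latter. The PDS5AB-NIPBL groups overlap, and the treated WAPL-NIPBL libraries are below all 9 others. The WAPL-NIPBL line showed a log2 change of -1.16 in Kbtbd11 (SE 0.131, edgeR adjusted p = 3.62e-07), its log2 fold change was 0.02 in the other line (edgeR adjusted p = 0.94), and the difference was 1.18 (SE 0.184, edgeR adjusted p = 0.00121). Kbtbd11 overlaps 2 genes on the other strand. The processed pseudogene Gm6166, which overlaps Gm18103 and may share reads with its parent gene, had the same form, with 0.21 and -1.45 in the 2 lines (difference 1.66, edgeR adjusted p = 0.00809). Outside the naming rule, and chosen after their values were seen, Dapk1, a kinase of cell death, differed by 0.57 (edgeR adjusted p = 0.0352, lost in 11 of the 12 fits that left out 1 library, up to 0.151 without WAPL-NIPBL treated replicate 1), and the fatty acid carrier Fabp5 fell in the WAPL-NIPBL line and was not called in the other (-0.20 and -1.19, difference 0.99, edgeR adjusted p = 0.0129). Kbtbd11, Gm6166 and Fabp5 were each called in all 12 fits that left out 1 library.

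The negative side holds genes that fell further in the PDS5AB-NIPBL line and genes that rose in the WAPL-NIPBL line. Ceacam1 (GRCm38 chromosome 7, 25461707 to 25477603), an adhesion receptor, fell in both. Levels of Ceacam1 were 9.43, 10.1 and 5.896 CPM in the untreated and 0.455, 0.859 and 0.322 CPM in the treated PDS5AB-NIPBL libraries. Those of the WAPL-NIPBL line were 11.8, 12.97 and 12.5 CPM before and 2.64, 3.25 and 2.93 CPM after treatment. Treated libraries are below untreated ones in both lines, and those of the PDS5AB-NIPBL line are the lowest. PDS5AB-NIPBL untreated replicate 3 is the lowest untreated library. The log2 changes were -4.01 for PDS5AB-NIPBL and -2.07 for WAPL-NIPBL cells, and the difference was -1.94 (SE 0.335, edgeR adjusted p = 0.00403, called in all 12 fits that left out 1 library). It overlaps 4732471J01Rik on the other strand.

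Adamts8 (GRCm38 chromosome 9, 30942562 to 30963838), a secreted metalloprotease, fell from a high level to near that of the other line. The 3 untreated PDS5AB-NIPBL libraries gave 11.6, 11.4 and 11.96 CPM for Adamts8 and the 3 treated ones 2.28, 1.97 and 2.51 CPM. From the WAPL-NIPBL line, the untreated libraries gave 2.94, 2.47 and 1.92 CPM and the treated ones 1.95, 1.29 and 1.25 CPM. The untreated PDS5AB-NIPBL libraries stand alone, and the treated ones overlap the untreated WAPL-NIPBL libraries. The difference was -1.63 (SE 0.246, edgeR adjusted p = 0.000826). Adamts8 overlaps Gm29724 on the other strand.

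Socs2 (GRCm38 chromosome 10, 95385362 to 95417180), a feedback inhibitor of cytokine signalling through JAK and STAT, was at a similar level in both untreated lines. With treatment, Socs2 went from 24.2, 34.9 and 30.4 CPM to 10.4, 11.1 and 11.9 CPM over the PDS5AB-NIPBL libraries. Over the WAPL-NIPBL libraries it went from 35.3, 34.5 and 33.7 CPM to 29.1, 27.6 and 25.7 CPM. The treated PDS5AB-NIPBL libraries are below all others. Socs2 had a called log2 change of -1.42 for PDS5AB-NIPBL and of -0.33 for WAPL-NIPBL cells (difference -1.09, SE 0.147, edgeR adjusted p = 0.000347). Tcf15 (GRCm38 chromosome 2, 152143561 to 152149097), a basic helix-loop-helix factor linked to the exit from naive pluripotency, fell in both lines too. Untreated PDS5AB-NIPBL libraries held 11.1, 10.8 and 11.4 CPM of Tcf15, and the treated ones held 3.42, 4.45 and 3.73 CPM. The WAPL-NIPBL libraries held 14.8, 17.3 and 15.1 CPM untreated and 9.95, 10.1 and 10.8 CPM treated. The order from lowest to highest is treated PDS5AB-NIPBL, treated WAPL-NIPBL, untreated PDS5AB-NIPBL and untreated WAPL-NIPBL, with treated WAPL-NIPBL and untreated PDS5AB-NIPBL reaching within a small overlap. Its difference was -0.91 (SE 0.153, edgeR adjusted p = 0.00334). Adamts8, Socs2 and Tcf15 were called in all 12 fits that left out 1 library.

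Sdc3 (GRCm38 chromosome 4, 130792537 to 130826319), a heparan sulfate proteoglycan of the cell surface, rose in the WAPL-NIPBL line and was not called in the other. Sdc3 stood at 17.2, 17.1 and 15.6 CPM in untreated and at 15.2, 15.4 and 16.2 CPM in treated libraries of the PDS5AB-NIPBL line. The values for the WAPL-NIPBL line were 6.25, 7.37 and 4.96 CPM untreated and 11.2, 13.7 and 11.5 CPM treated. The PDS5AB-NIPBL groups overlap, and the treated WAPL-NIPBL libraries lie between them and the untreated ones. Its log2 fold change was -0.09 for PDS5AB-NIPBL (edgeR adjusted p = 0.683), and 0.97 in the WAPL-NIPBL line (edgeR adjusted p = 3.55e-06), a difference of -1.06 (SE 0.172, edgeR adjusted p = 0.00238). Sdc3 overlaps Gm12970 and Gm26716 on the other strand. The predicted gene 8030474K03Rik had the same form, with 0.09 and 0.94 (difference -0.85, edgeR adjusted p = 0.00519). Both were called in all 12 fits that left out 1 library. The forkhead factor Foxd1 had 0.04 and 1.57 in the 2 lines, and Maml2, a coactivator of Notch, had 0.36 and 1.15. Their differences of -1.52 and -0.79 (edgeR adjusted p = 0.0346 and 0.0444) were lost in 10 and 9 of the 12 fits. The highest adjusted p was 0.133 for Foxd1, without WAPL-NIPBL untreated replicate 3, and 0.144 for Maml2, without PDS5AB-NIPBL treated replicate 2.

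The other 3 of the 12 most negative genes fell in the PDS5AB-NIPBL line and were not called in the WAPL-NIPBL effect. Samd9l, an interferon-induced inhibitor of growth, differed by -1.36 (edgeR adjusted p = 0.0178), a call lost in 5 of the 12 fits (up to 0.0564, without PDS5AB-NIPBL treated replicate 1). Fam131c differed by -1.17 (edgeR adjusted p = 0.0214), lost in 7 (up to 0.0855, without PDS5AB-NIPBL treated replicate 3). Car8, related to the carbonic anhydrases, differed by -0.97 (edgeR adjusted p = 0.0265), lost in 7 (up to 0.0835, without WAPL-NIPBL untreated replicate 3).

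**Figure D3:**
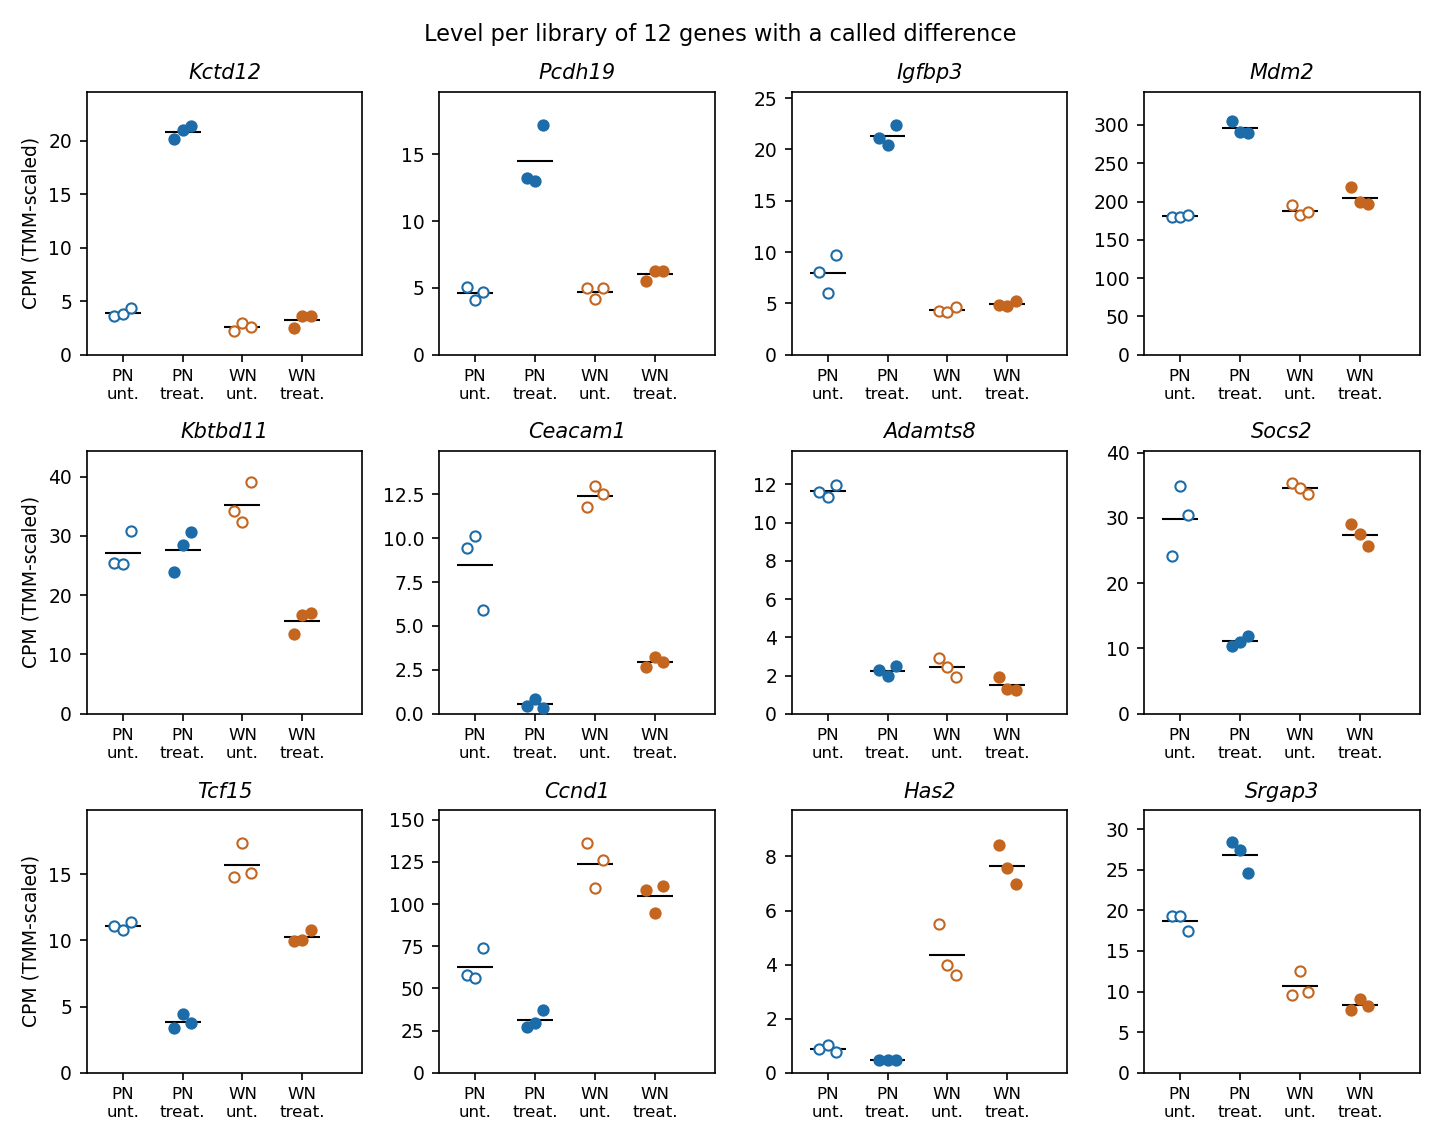
CPM in each library (y axis, linear and starting at 0) of 12 genes with a called difference, in untreated (open) and treated (filled) libraries of the PDS5AB-NIPBL line (PN, blue) and the WAPL-NIPBL line (WN, orange), with 3 libraries a group and a bar at the group mean. In Kctd12, Pcdh19, Igfbp3 and Mdm2 the treated PDS5AB-NIPBL libraries stand above all others, and in Kbtbd11 the treated WAPL-NIPBL libraries stand below all others.

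Some genes responded in opposite directions. Of 1285 genes called in both effects, 1282 changed in the same direction and 3 in opposite directions, namely Srgap3, Has2 and Mios, and all 3 were called in the difference. With the block, 24 of the 807 genes called in the difference had both effects called in opposite directions and 273 in the same direction. Srgap3 (GRCm38 chromosome 6, 112717971 to 112947266), a GTPase-activating protein of Slit and Robo signalling, rose in the PDS5AB-NIPBL line and fell in the WAPL-NIPBL line. The level of Srgap3 before treatment was 19.3, 19.3 and 17.5 CPM in the PDS5AB-NIPBL libraries and 9.52, 12.6 and 9.95 CPM in the WAPL-NIPBL libraries. After treatment it was 28.4, 27.4 and 24.6 CPM in the former and 7.79, 9.096 and 8.18 CPM in the latter. The groups shift apart from a start where the PDS5AB-NIPBL libraries were already the higher. The fold changes were log2 0.52 and -0.35, and the difference was 0.87 (SE 0.148, edgeR adjusted p = 0.00354, called in all 12 fits that left out 1 library). It overlaps Gm44081 on the other strand.

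Has2 (GRCm38 chromosome 15, 56665627 to 56694539), a hyaluronan synthase of the extracellular matrix, moved the other way. Levels of Has2 were 0.861, 1.05 and 0.753 CPM in the untreated and 0.455, 0.455 and 0.466 CPM in the treated PDS5AB-NIPBL libraries. Those of the WAPL-NIPBL line were 5.496, 3.98 and 3.63 CPM before and 8.44, 7.56 and 6.97 CPM after treatment. The lines do not overlap in either state and lie further apart when treated. The fold changes were log2 -0.93 and 0.81, and the difference was -1.74 (SE 0.39, edgeR adjusted p = 0.0352). Its call was kept only without WAPL-NIPBL untreated replicate 1 or WAPL-NIPBL treated replicate 3, and the highest adjusted p was 0.111, without PDS5AB-NIPBL untreated replicate 2. Has2 overlaps Has2os on the other strand. Mios (GRCm38 chromosome 6, 8209222 to 8236274), a subunit of the GATOR2 complex that relays amino acid supply to mTORC1, had small changes of -0.24 and 0.23 and a difference of -0.47 (SE 0.104, edgeR adjusted p = 0.0352). That call was kept only without WAPL-NIPBL treated replicate 1 or 3, with a highest adjusted p of 0.134 without WAPL-NIPBL treated replicate 2.

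Of the 30 gene lists examined, those for signalling gave 2 more called genes. Ccnd1 (GRCm38 chromosome 7, 144929931 to 144939925), which encodes cyclin D1, a driver of the G1 phase and a target of Wnt signalling, fell in the PDS5AB-NIPBL line. The 3 untreated PDS5AB-NIPBL libraries gave 58.2, 56.2 and 73.9 CPM for Ccnd1 and the 3 treated ones 27.2, 29.3 and 37.2 CPM. From the WAPL-NIPBL line, the untreated libraries gave 136, 110 and 126 CPM and the treated ones 109, 94.9 and 111 CPM. The treated PDS5AB-NIPBL libraries are the lowest, and the untreated lines do not overlap. The difference was -0.76 (SE 0.17, edgeR adjusted p = 0.0352). It overlaps LTO1 on the other strand. Its adjusted p was 2.66e-07 with the replicate block, and without the block the call was lost in 7 of the 12 fits that left out 1 library (up to 0.171, without PDS5AB-NIPBL untreated replicate 3). Cdk6, the kinase partner of D cyclins, was called beside it. Named after its values were seen, Cdk6 had a called log2 change of -0.9985 in PDS5AB-NIPBL cells, with -0.26 (not called) in WAPL-NIPBL cells (difference -0.74, edgeR adjusted p = 0.011, 2.29e-07 with the block), a call lost without PDS5AB-NIPBL untreated replicate 3 (0.0504). Bmp7 (GRCm38 chromosome 2, 172868012 to 172940321), a ligand of BMP receptors, rose in both lines, by log2 0.96 and 0.39. With treatment, Bmp7 went from 11.5, 11.8 and 9.76 CPM to 21.8, 21.2 and 21.3 CPM over the PDS5AB-NIPBL libraries. Over the WAPL-NIPBL libraries it went from 25.2, 24.8 and 24.4 CPM to 31.6, 32.1 and 34.1 CPM. Treated libraries exceed untreated ones within each line, and every WAPL-NIPBL library exceeds every PDS5AB-NIPBL library. The difference of 0.57 (SE 0.129, edgeR adjusted p = 0.0389) lost its call in all 12 fits that left out 1 library (up to 0.182, without PDS5AB-NIPBL untreated replicate 3) and was called with the replicate block (0.00343).

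Many pluripotency genes fell in both lines. Of 17 naive pluripotency genes, 12 fell in the PDS5AB-NIPBL line and 11 in the WAPL-NIPBL line (8.06% and 3.45% of all genes), and none was called in the difference. With the block 2 were positive (2.68% of all genes, Tet2 and Tfcp2l1) and 1 negative (1.38%, Prdm14), each named after its values were seen. Prdm14, a transcription factor of the naive state, fell by 1.01 and 0.68 on the log2 scale (difference -0.33, edgeR adjusted p = 0.311, 0.0116 with the block). Tet2, an enzyme that oxidises methylated DNA, fell by 0.61 and 0.98 (difference 0.37, edgeR adjusted p = 0.794, 0.00941 with the block). Of 10 core pluripotency genes, 6 fell in the PDS5AB-NIPBL line and 4 in the WAPL-NIPBL line, and with the block 9 fell in each (15.3% and 10.1% of all genes). Of these 10, 1 had a negative difference with the block, Lin28a, an RNA-binding protein that blocks let-7 (-0.62, edgeR adjusted p = 0.133, 3.55e-05 with the block).

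Of 21 genes of amino acid transport and the ATF4 response, 11 fell in the PDS5AB-NIPBL line and 6 in the WAPL-NIPBL line (8.06% and 3.45% of all genes), and with the block 13 and 12 fell (15.3% and 10.1%). None was called in the difference with or without the block. With auxin alone, in the line that carries Tir1 and no degron, 16 of the 21 fell and 0 rose (9.59% and 10.4% of all genes). Their median log2 there was -0.41, and the part of auxin in the falls above was not tested. Of 17 endoderm genes tested, 6 rose in the PDS5AB-NIPBL line and 5 in the WAPL-NIPBL line (11.4% and 5.11% of all genes). With the block 7 and 8 rose (16.8% and 10.8%), and again 0 were called in the difference in either fit. Of 20 mitosis genes, 0 were called in either effect or in the difference. With the block 9 of them fell in the PDS5AB-NIPBL line and 4 in the WAPL-NIPBL line (15.3% and 10.1% of all genes), and 0 were called in the difference. Of 30 Hox genes tested, 13 rose in the PDS5AB-NIPBL line and 4 in the WAPL-NIPBL line (11.4% and 5.11% of all genes), and with the block 20 and 7 rose (16.8% and 10.8%). None was called in the difference without the block, and 1 of the 30 with it (2.68% of all genes), Hoxc13, named for that call (0.44, edgeR adjusted p = 0.453, 0.0411 with the block).

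In the lists of lineage and matrix genes described next, differences were called in the paired fit and none without it, and the examples were chosen after their values were seen. Of 14 neural progenitor genes tested, 3 were positive with the block (2.68% of all genes). Nes, an intermediate filament of neural progenitors, rose in the PDS5AB-NIPBL line from a mean of 67.9 to 112 CPM and stood at 84.99 and 101 CPM in the WAPL-NIPBL line (difference 0.47, edgeR adjusted p = 0.327, 0.000659 with the block). The other 2 were Tubb3 and Neurod1. Of 47 collagen and laminin genes tested, 4 were positive and 0 negative with the block (2.68% and 1.38% of all genes). Col1a1, a chain of type I collagen, had a positive difference with the block (1.13, edgeR adjusted p = 0.0578, 0.00098 with the block). Col1a1 also stands on the fibroblast list, of which 5 of 11 genes were tested, and the summed level of those 5 was 19.7 to 25.8 CPM over the 12 libraries. Of 15 formative epiblast genes, 3 were negative with the block (1.38% of all genes), Sfrp2, Zic2 and Foxd3, with differences of -0.69, -0.47 and -0.39 (edgeR adjusted p = 0.00275, 0.0362 and 0.0286 with the block, 0.178, 0.664 and 0.623 without). Zic2 and Foxd3 fell in both lines, and Sfrp2 rose in the WAPL-NIPBL line and was not called in the other.

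Genes of Nodal signalling and of ERK feedback, whose examples were also chosen after their values were seen, followed. Of 16 Nodal and activin genes tested, 3 were positive and 1, Fst, negative with the block (2.68% and 1.38% of all genes). Fst, the secreted antagonist follistatin, fell in PDS5AB-NIPBL cells, with a log2 change of -1.46 against -0.39 in WAPL-NIPBL cells (difference -1.07, edgeR adjusted p = 0.0528, 0.00333 with the block). The ligand Nodal itself went from a mean of 100.1 to 125 CPM in the PDS5AB-NIPBL line, where it rose, and stood at 79.6 and 78.7 CPM in the WAPL-NIPBL line (difference 0.33, edgeR adjusted p = 0.415, 0.00485 with the block). Of 18 genes of ERK feedback and early response, 1 was negative with the block (1.38% of all genes), Dusp6, a phosphatase that dampens ERK (-0.74, edgeR adjusted p = 0.53, 0.0234 with the block), which fell in both lines by 2.14 and 1.41 on the log2 scale. Of 18 cohesin genes and regulators tested, 0 were called in the difference in either fit.

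The lines already differed before treatment. Of all genes, 4552 (22.9%) were called between untreated PDS5AB-NIPBL and untreated WAPL-NIPBL cells and 4902 (24.7%) between the treated ones. Of the 72 genes, 49 were called between the untreated lines, 15 higher and 34 lower in the PDS5AB-NIPBL line, and 56 between the treated lines, 38 higher and 18 lower. The lines stood further apart treated than untreated for 44 of the 72, against 51.53% of all genes. These counts use the same libraries as the difference and are given as a description.

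The PDS5AB and WAPL lines, which carry the AID degrons without the NIPBL degron or the HaloTag, give a further view, since their 12 libraries are not among the 12 above. All 30 libraries share 1 fit and its estimate of spread, so the 2 views are not fully independent. The PDS5AB and WAPL lines were treated with 500 µM auxin alone for 24 h. The PDS5AB libraries are numbered 1 to 19 and the WAPL libraries from 29 to 42, so a difference between these 2 lines also crosses library sets, and the part of that in it was not tested. The PDS5AB effect differed from the WAPL effect for 2481 genes (12.5%), 1466 higher (7.38%) and 1015 lower (5.11%). Of the 53 genes with a positive difference above, 34 were called here in the same direction and 0 in the opposite one, with a median log2 of 0.56. Of the 19 with a negative difference, 4 were called in the same direction and 4 in the opposite one, with a median of 0.02. Over all 72 genes, 57 had the same sign in both pairs of lines.

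The difference of the 2 differences tests directly whether the contrast of the co-depletion lines departs from that of the lines that keep NIPBL. It was called for 327 genes (1.65%), 129 higher (0.649%) and 198 lower (0.997%), and for 1975 with the replicate block within each line. Of the 53 genes 6 were called, and of the 19 genes 10. These genes were chosen on the co-depletion difference, which is part of this value, so the counts and the gaps below are a description. Ceacam1 had a negative difference with NIPBL co-depletion (-1.94) and a positive one without (1.74, edgeR adjusted p = 0.000109), a gap of -3.67 (edgeR adjusted p = 9.96e-06). Its log2 change was -1.75 with PDS5AB loss (46% of genes called in that effect, 20.2% lower) and -3.49 with WAPL loss (32.8% called), so there it fell further with WAPL loss. Has2 reversed in the same way (-1.74 and 1.96, gap -3.71, edgeR adjusted p = 0.00034), as did Car8 (-0.97 and 0.93, gap -1.90, edgeR adjusted p = 0.000196) and Sdc3 (-1.06 and 0.54, gap -1.59, edgeR adjusted p = 0.000196).

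Kctd12 rose in both lines that keep NIPBL, by log2 1.64 in the PDS5AB line and 1.78 in the WAPL line, and the difference of -0.14 was not called (edgeR adjusted p = 0.691). Its gap to the co-depletion difference was 2.23 (SE 0.281, edgeR adjusted p = 1.88e-05). Pcdh19, Adamts8, Fam131c, Tcf15 and Mios were called as well, with gaps of 1.12, -1.44, -1.62, -1.29 and -0.54 (edgeR adjusted p = 0.0253, 0.0126, 0.00706, 0.000932 and 0.0475). In contrast, Kbtbd11, Srgap3 and Socs2 had nearly the same difference in both pairs of lines. For Kbtbd11 it was 1.18 and 1.19, for Srgap3 0.87 and 0.97, and for Socs2 -1.09 and -0.98. Their gaps were -0.01 (SE 0.267), -0.10 (SE 0.203) and -0.10 (SE 0.212), and none was called. Mdm2 had 0.58 and 0.28 (gap 0.31, SE 0.118, edgeR adjusted p = 0.23), and Ccnd1 -0.76 and -0.84 (gap 0.08, SE 0.24, edgeR adjusted p = 0.943).

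**Figure D4:**
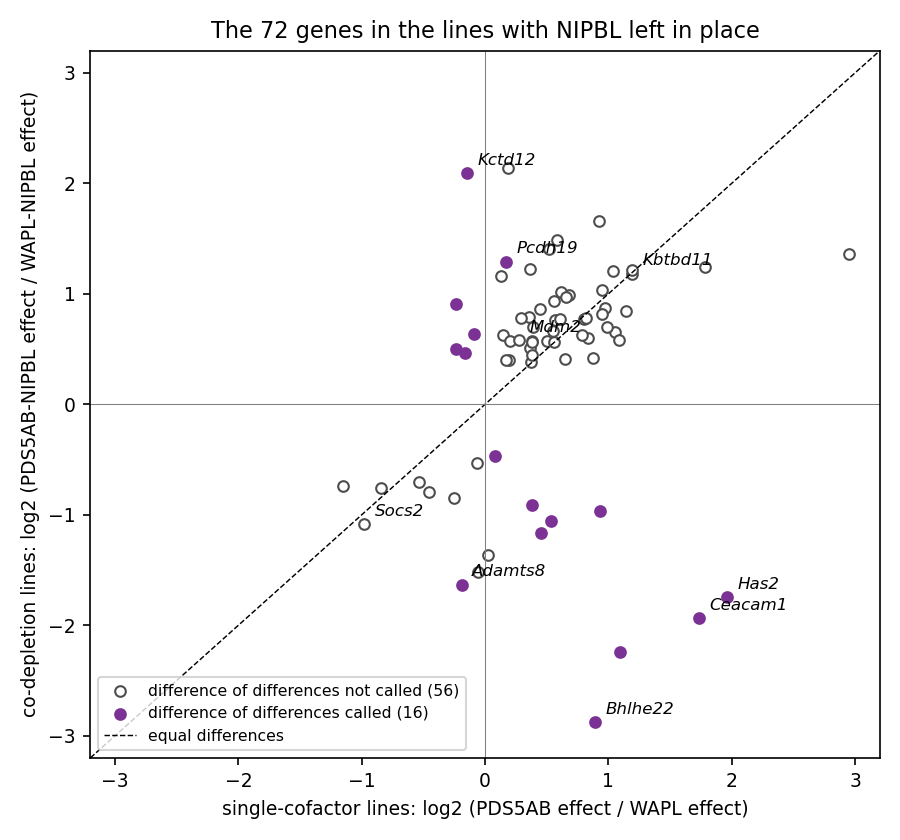
Log2 difference between the co-depletion lines' effects (y axis) against the log2 difference between the PDS5AB and WAPL effects in the lines that keep NIPBL (x axis) for the 72 genes called on the y axis. Filled purple points are the 16 genes whose 2 differences differ from each other, open points the other 56, and the dashed line marks equal differences. Ceacam1 and Has2 lie at the lower right, negative on one axis and positive on the other.

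The 72 genes were also described by where they lie and what they hold. Of them 70 are protein coding (97.22%, against 76.63% of genes tested), and 30 overlap a gene on the other strand (40.72% of genes tested do). The 4 genes Gm11454, C4b, Amigo2 and Bhlhe22 had a mean under 50 counts and fell outside the naming rule. By gene span, the called share without the block was 0.182% of genes under 10 kb, 0.463% of those of 10 to 50 kb, 0.398% of those of 50 to 100 kb, 0.636% of those of 100 to 400 kb and 0.413%, which is 1 gene, of those of 400 kb or more. In the paired fit it was 2.39% of 7707 genes under 10 kb, 4.79% of 7771 genes of 10 to 50 kb, 4.55% of 2262 genes of 50 to 100 kb, 6.63% of 1886 genes of 100 to 400 kb and 9.50% of 242 genes of 400 kb or more. The genes under 10 kb had a median of 31.2 counts and those of 10 to 50 kb a median of 516 counts, and the part of count depth in these shares was not tested. Of the 23 called genes of 400 kb or more, 19 were positive, against 532 of all 807 called in that fit, and all genes of that class had a median of 48.1 counts. Of the 7 pairs of neighbouring genes among the 72 that lie within 2 Mb, Tbc1d4 and Kctd12 are one. Others are Scn3b and Gramd1b, 1.6 kb apart on chromosome 9, with differences of 0.82 and 0.50, and Pcdh19 and Tmem35a, 606.2 kb apart on the X chromosome with 6 tested genes between them, with 1.29 and 0.91. These genes were chosen for their positions after their values were seen, and the calls for Scn3b and Tmem35a were each lost in 11 of the 12 fits that left out 1 library (up to 0.205 for Scn3b, without WAPL-NIPBL untreated replicate 1, and 0.121 for Tmem35a, without PDS5AB-NIPBL treated replicate 1).

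Promoter windows were found for 38 of the 53 positive and 12 of the 19 negative genes. The 14-base core motif of CTCF, searched on both strands with at most 2 mismatches, was found in 5 of the 38 (13.2%) and 3 of the 12 (25%), against 13.4% of tested genes with a window. A p53 site with at most 3 mismatches was found in 1 of the 38 (2.63%), Abcb1b, and in 1 of the 12 (8.33%), Chn1, against 1.62%. Among genes called with the replicate block, the p53 site was found in 15 of the 402 positive genes with a window (3.73%) and 7 of the 202 negative ones (3.47%), and the CTCF motif in 13.4% of each.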

How the data were processed

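RNA-seq was made from polyA-selected RNA with a stranded kit, per the labels' protocols. The values are raw counts of fragments per gene, as deposited: per the file headers, featureCounts 2.0.1 counted read pairs against GENCODE gene models of GRCm38, with no strand setting, and fragments that match several places or genes were dropped. STAR 2.7.7a, cutadapt and deepTools are named in the submitters' processing notes.

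All 30 libraries were fitted together in R 4.3.3 with edgeR 4.0.16 (TMM scaling, filterByExpr with a minimum count of 10, quasi-likelihood F-test, 10 group means, 20 residual degrees of freedom), which tested 19868 of 55421 genes. P-values were adjusted over all genes tested by the Benjamini-Hochberg method. CPM values are TMM-scaled, except those of the check of marker genes, which are scaled by total counts alone. The difference is the treated minus untreated log2 change of the PDS5AB-NIPBL line minus that of the WAPL-NIPBL line. Groups were taken from the labels. No 2 libraries held identical counts. The fits were also run on counts simulated from the main fit with known changes. These counts held no correlation between same-numbered libraries, so they do not test the pairing.

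Same-numbered treated and untreated libraries of a line deviated together from their group means. Their correlations were 0.163, 0.222 and 0.207 in the PDS5AB-NIPBL line and 0.186, 0.249 and 0.195 in the WAPL-NIPBL line. Those between different numbers, -0.150 to -0.046, are drawn down by the subtraction of group means and are no separate contrast. Same-numbered libraries of the 2 lines correlated as well, at 0.080, 0.198 and 0.102 between untreated and 0.134, 0.153 and 0.157 between treated libraries. The numbers come from the labels, which do not say that a number marks a shared batch. A fit with a replicate block within each line was therefore made as well. A fit with an additive replicate block shared by all lines was also made, and its counts are given at the end.

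Named genes are those called with a mean of at least 50 counts over the 12 libraries that are among the 12 most positive or 12 most negative differences, the 4 largest (3 exist) of opposite direction in the 2 lines, or the 3 largest in each of 30 gene lists, and the tagged genes. Others are said to be chosen after their values were seen. The members and lists were chosen with earlier results of these data known. Alternatives were DESeq2 1.42.0, RLE scaling, no filter on low counts, a 2-fold minimum, the compared groups alone, replicate blocks and leaving out each library. The compared groups alone with the block was added after seeing the data. Promoter windows are from RefSeq (GRCm38.p6). Some members of the gene lists are not reported here.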

Additional observations from a re-analysis of the deposited data

Results flagged for a closer look

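The 2 lines' treatment effects differed by a direct test of the difference for 72 genes, and the difference of the 2 differences, which sets the co-depletion lines against the lines that keep NIPBL, was called for 327 genes (edgeR, Benjamini-Hochberg). The genes below are those of the naming rule, not all 72, and each stands out for the same reason, a called difference between the lines, given as its log2 value.

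Among the genes of the naming rule, positive differences called in all 12 fits leaving out 1 library were those of Kctd12 (2.09), Gm6166 (1.66), Pcdh19 (1.29), Igfbp3 (1.23), Kbtbd11 (1.18), Lacc1 (1.16), Srgap3 (0.87) and Mdm2 (0.58). The negative ones of the rule that were called in all 12 were those of Ceacam1 (-1.94), Adamts8 (-1.63), Socs2 (-1.09), Sdc3 (-1.06), Tcf15 (-0.91) and 8030474K03Rik (-0.85).

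Among the genes of the rule, positive differences that lost their call in at least 1 of those fits were those of Tbc1d4 (1.41), Gm17657 (1.36), Nlrp9b (1.24), B3gnt3 (1.22), Spi1 (1.20), 9530053A07Rik (1.04), Btg2 (0.60), Plk2 (0.57) and Bmp7 (0.57). The negative ones of the rule were those of Has2 (-1.74), Foxd1 (-1.52), Samd9l (-1.36), Fam131c (-1.17), Car8 (-0.97), Maml2 (-0.79), Ccnd1 (-0.76) and Mios (-0.47). All of these genes were called with the replicate block within each line.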

How the results depend on the processing

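The count of 72 genes was 72 with RLE scaling and 58 with the compared groups alone, 155 with DESeq2, 163 with no filter on low counts, 1 with a 2-fold minimum, 170 with an additive replicate block, 807 with the replicate block within each line and 751 with the compared groups alone and the replicate block (added after seeing the data). Of the 72 genes, 70 remained called with DESeq2, 56 with no filter, 43 with the compared groups alone, all 72 with the additive replicate block and with the block within each line, and 71 with the compared groups alone and the replicate block. None of the 72 changed direction under these settings or in any fit that left out 1 library. Leaving out 1 library gave 28 to 56 genes; 20 of the 72 were called in every such fit and 5 in none. The count was lowest without PDS5AB-NIPBL untreated replicate 3 (28), and it was 36 without PDS5AB-NIPBL treated replicate 1, 37 without WAPL-NIPBL treated replicate 2 or WAPL-NIPBL untreated replicate 3, 38 without WAPL-NIPBL untreated replicate 2, 40 without PDS5AB-NIPBL untreated replicate 2 and 47 without WAPL-NIPBL untreated replicate 1.

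With a 2-fold minimum the counts were 75 for the PDS5AB-NIPBL effect, 17 for the WAPL-NIPBL effect, 340 between untreated lines, 407 between treated lines, 45 for the lines that keep NIPBL and 6 for the difference of the 2 differences. With the replicate block within each line they were 6377, 4152, 5423 and 1975 for the PDS5AB-NIPBL effect, the WAPL-NIPBL effect, the lines that keep NIPBL and the difference of the 2 differences, and with the compared groups alone and the replicate block they were 6048, 5913 and 771 for the first, second and last of these. The difference of the 2 differences also gave 559 genes with DESeq2, 550 with no filter and 643 with an additive replicate block. Leaving out 1 library gave 2859 to 3335 genes for the PDS5AB-NIPBL effect, 1147 to 1334 for the WAPL-NIPBL effect, 3565 to 4139 between untreated lines, 3741 to 4200 between treated lines, 1974 to 2615 for the lines that keep NIPBL and 237 to 373 for the difference of the 2 differences. Apart from the 2-fold minimum, which asks for a larger change, the cause of these shifts was not tested. With 3 libraries a group, small differences in genes of low count may be missed at this depth, and how many was not tested.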
